A study of Mus musculus with 6 samples.

Results

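The cytosolic ribosomal protein genes encode the proteins of the small (Rps) and large (Rpl) subunits of the ribosome outside mitochondria. They were chosen by symbol alone, as protein-coding genes named Rpl or Rps with a number (some with a letter for a paired or X-linked gene) together with Rpsa and the stalk genes Rplp0, Rplp1 and Rplp2. The rule found 82 genes of 21887 protein-coding genes on chromosomes 1 to 19, X and Y, among them 44 large-subunit genes, 30 small-subunit genes, 3 stalk genes and 5 paralogs (Rpl3l, Rpl10l, Rpl39l, Rpl36al and Rps27l). Rpl32l, by its name a form like Rpl32, was not on the list of paralogs and is counted with the large subunit. No measured value entered the choice. The naming pattern misses some genes of the cytosolic ribosome, among them Rps3a1, Fau and Rack1, which are given separately.

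The study followed chromatin accessibility by ATAC-seq after loss of NSD1, an H3K36 methyltransferase, in a mouse embryonic stem cell line. All 6 samples carry the NSD1-dTAG knock-in, a tag through which the compound dTAG-13 triggers degradation of the protein. By title, stem cells had dTAG-13 (500 nM) for 0, 1, 6 or 24 h, and embryoid bodies were grown for 6 days with or without it, with 1 sample in each case. The values below come from 1 library, that of untreated E14 NSD1-dTAG knock-in stem cells held in 2i/LIF medium, which keeps the cells in the naive state. Untreated cells therefore also carry the tagged allele, and an untagged parent line and the treated samples were not analysed here. With 1 library there was no replicate, so no difference was tested against biological spread. The intervals of single pileups cover counting error only. Those of shares and medians take the genes of this 1 library as units, and genes are not replicates. Gene ends of 7 of 8 stem-cell genes (Pou5f1, Sox2, Nanog, Klf4, Zfp42, Tfcp2l1 and Klf2) had a peak, with the highest gene-end signal at Klf2 and Pou5f1 (for Pou5f1 in a peak apart from its start peak), and Esrrb had its peak inside the gene. Of 6 genes of other cell types, Ckm and Col1a1 had such a peak and Alb, Cd8a, Acta2 and Myf5 had none. Over all protein-coding genes the share with a gene-end peak was 66.5%. Within 1 kb of an annotated start, a peak lay at 7 of 8 stem-cell genes and 0 of 5 genes of other cell types. The share over all genes with a start was 65.2%.

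ATAC-seq reads mark DNA that the Tn5 transposase can reach, which in most genes is the nucleosome-poor stretch just before the transcription start. Ribosomal protein genes are short housekeeping genes whose products are needed in equal amounts, and many begin transcription at a cytosine within a run of pyrimidines. That start places a 5′ terminal oligopyrimidine (TOP) tract on the mRNA, through which mTOR signalling controls its translation. Many of these genes also hold small nucleolar RNA (snoRNA) genes in their introns. Accessibility is not a measure of expression, and no RNA was measured here.

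Of the 82 genes, 62 matched a promoter entry with strand and start, from RefSeq on GRCm38.p6. Among the other 20 were Rpl3, Rpl7, Rpl8, Rpl17, Rpl21, Rpl23a, Rpl29, Rpl30, Rpl32, Rpl36, Rplp1, Rps14, Rps20, Rps27a and Rps29. Starts with an annotated cytosine followed by at least 4 pyrimidines are shown first, because the TOP start is the sequence feature these genes are known for. There were 13 such genes among 62 (20.97%, Wilson 95% interval 12.7 to 32.6%), against 2.17% of 17492 protein-coding genes with an annotated start. Among 10380 genes with an ATAC-seq peak over the start base the share was 2.26%. Each line gives 12 bases before the annotated start and 18 from it, 5′ to 3′ on the gene strand, with the unbroken pyrimidine run over the start in capitals.
Rpl35: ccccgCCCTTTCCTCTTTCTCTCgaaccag
Rpl15: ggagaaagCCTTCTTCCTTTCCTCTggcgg
Rpl14: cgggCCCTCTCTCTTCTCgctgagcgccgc
Rps10: ccgcgcacgCCCCTTCCTTTCCagcctccg
Rpl28: cctctcgtgTCTCTCTTTCCgtctccggcc
Rps18: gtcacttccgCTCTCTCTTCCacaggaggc
Rpl32l: taaaatgaccagCTTCTTCCTTggtgctgc
Rpl38: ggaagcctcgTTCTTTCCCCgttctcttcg
Rplp2: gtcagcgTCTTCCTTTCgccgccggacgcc
Rps6: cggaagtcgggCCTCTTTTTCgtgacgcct
Rps15a: tctttctgccaTCTTCCCTCgccggtgagt
Rps27: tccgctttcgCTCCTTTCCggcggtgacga
Rps21: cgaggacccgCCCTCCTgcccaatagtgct
On the plus strand these windows were chr9:120571505-120571534 (Rpl14), chr7:4792953-4792982 (Rpl28), chr10:20208427-20208456 (Rpl32l), chr11:114668568-114668597 (Rpl38), chr7:141447639-141447668 (Rplp2) and chr2:180257367-180257396 (Rps21). On the minus strand they were chr2:39005114-39005143 (Rpl35), chr14:18270969-18270998 (Rpl15), chr17:27635227-27635256 (Rps10), chr17:33955648-33955677 (Rps18), chr4:86857350-86857379 (Rps6), chr7:118116130-118116159 (Rps15a) and chr3:90213631-90213660 (Rps27). Rpl32l had no peak near it. The runs spanned 7 bases in Rps21 to 18 in Rpl35, and they came from large-subunit, small-subunit and stalk genes alike. Rps6 encodes the substrate of S6 kinase, and Rplp2 a protein of the stalk that recruits elongation factors. Counting any base at the start, 19 of 62 genes (30.6%, 20.6 to 43.0%) had a pyrimidine run of at least 5 across it, against 8.60% of all promoters. The annotated start base was a cytosine in 20 of the 62 genes (32.3%), against 13.7% of all. The annotation gives 1 position where transcription often begins at several, and a start placed a few bases away would hide such a run.

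Longer promoter windows, 150 bases before the start and 20 from it, are shown for 4 genes with the highest ATAC-seq signal among those with a promoter entry (Rpl15, Rpl37, Rps21 and Rpl13a), the 2 with the lowest (Rpl10l and Rpl39l), and Rpl3l, which was added after its values were seen because it had no peak near its start. Capitals mark the letters CCGGAAG of the ETS factor family, the CCAAT box, the GC box GGGCGG, each on either strand, and a pyrimidine run over the start.
Rpl15: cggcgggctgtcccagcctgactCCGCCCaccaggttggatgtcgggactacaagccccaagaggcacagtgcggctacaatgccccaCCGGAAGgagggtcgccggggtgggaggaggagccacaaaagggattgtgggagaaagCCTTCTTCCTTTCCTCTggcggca
Rpl37: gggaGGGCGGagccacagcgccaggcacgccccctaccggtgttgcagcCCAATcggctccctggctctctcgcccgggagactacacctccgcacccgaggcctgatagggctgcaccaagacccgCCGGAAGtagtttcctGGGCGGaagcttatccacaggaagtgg
Rps21: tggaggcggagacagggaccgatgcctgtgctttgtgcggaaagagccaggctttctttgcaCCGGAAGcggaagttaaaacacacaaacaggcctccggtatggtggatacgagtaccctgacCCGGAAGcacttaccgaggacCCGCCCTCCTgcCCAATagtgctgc
Rpl13a: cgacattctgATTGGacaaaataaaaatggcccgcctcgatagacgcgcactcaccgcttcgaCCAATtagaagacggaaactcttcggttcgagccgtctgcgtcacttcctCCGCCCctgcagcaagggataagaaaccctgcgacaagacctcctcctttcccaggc
Rpl10l: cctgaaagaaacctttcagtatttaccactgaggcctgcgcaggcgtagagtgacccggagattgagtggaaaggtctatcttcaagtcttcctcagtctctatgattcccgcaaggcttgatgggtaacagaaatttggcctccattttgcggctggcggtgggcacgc
Rpl39l: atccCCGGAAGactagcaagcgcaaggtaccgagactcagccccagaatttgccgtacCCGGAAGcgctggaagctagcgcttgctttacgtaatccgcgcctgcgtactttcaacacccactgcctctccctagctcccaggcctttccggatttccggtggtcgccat
Rpl3l: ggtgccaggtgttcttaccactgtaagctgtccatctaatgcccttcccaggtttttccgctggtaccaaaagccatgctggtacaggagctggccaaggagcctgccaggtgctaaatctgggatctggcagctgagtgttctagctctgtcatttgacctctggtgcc
The Rpl15 window held an ETS match 62 bases before the start, that of Rpl37 held 1 at 23 bases before it, and that of Rps21 held 2, at 88 and 26 bases before it. The Rpl13a window held none, although its signal was among the highest. Rpl39l held 2 ETS matches although its signal was the lowest. The Rpl10l and Rpl3l windows held none of the letters marked. In Rps21 the GC box and the pyrimidine run over the start overlap, so the capitals there run together. These windows lie at chr14:18270967-18271136 on the minus strand for Rpl15, chr15:5116463-5116632 on the plus strand for Rpl37, chr2:180257229-180257398 on the plus strand for Rps21, chr7:45128726-45128895 on the minus strand for Rpl13a, chr12:66284382-66284551 on the minus strand for Rpl10l, chr16:10170078-10170247 on the plus strand for Rpl39l and chr17:24727676-24727845 on the plus strand for Rpl3l.

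The ETS letters CCGGAAG occurred on either strand in the promoters of 24 of 62 genes (38.7%, 27.6 to 51.2%), in windows from 250 bases before the start to 50 from it. They occurred in 11.9% of all 17492 promoters and in 18.6% of the 10380 with a peak over the start. The YY1 letters AAGATGG, either strand, occurred in 9 of 62 (14.5%, 7.83 to 25.3%), against 6.35% of all promoters. The cAMP-response letters TGACGTCA occurred in 5 of 62 (8.06%, 3.49 to 17.5%), against 2.33%. The letters CTTTT on the gene strand, the core of an initiator described for genes of the translation machinery, occurred in 26 of 62 (41.9%, 30.5 to 54.3%), against 29.6%, and can overlap a pyrimidine run. Among promoters with a peak over the start, AAGATGG, TGACGTCA and CTTTT occurred in 6.93%, 3.46% and 24.4%. Matches are descriptions of letters, not of bound sites.

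For the other promoter letters the interval of the ribosomal protein genes included the share of all promoters. The CCAAT box occurred in 20 of 62 (32.3%, 22.0 to 44.6%), against 39.2% of all promoters, and the GC box GGGCGG in 36 (58.1%, 45.7 to 69.5%), against 46.3% of all and 69.6% of those with a peak over the start. The E-box CACGTG occurred in 5 (8.06%), against 7.91%, and the NRF1 letters GCGCATGCG in 2 (3.23%), against 2.41%. The letters TATAAA on the gene strand lay anywhere in the window of 6 genes (9.68%, 4.51 to 19.5%), against 8.99% of all promoters. In promoters with a peak over the start the share was 3.84%, below that interval. Between 35 and 20 bases before the start, where a TATA box acts, TATAAA lay in 0 of 62 (upper Wilson bound 5.83%). The shares there were 2.64% of all promoters and 0.954% of those with a peak over the start. The median GC content was 57.0% in the ribosomal protein genes, 56.3% in all promoters and 62% in those with a peak over the start, and the median number of CpG pairs in the window was 21, 13 and 22. In all, 13 motif forms were compared, of which the placed TATAAA and a form of AAGATGG after the start (4 of 62, against 2.25%) were added after seeing the data.

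**Figure D1:**
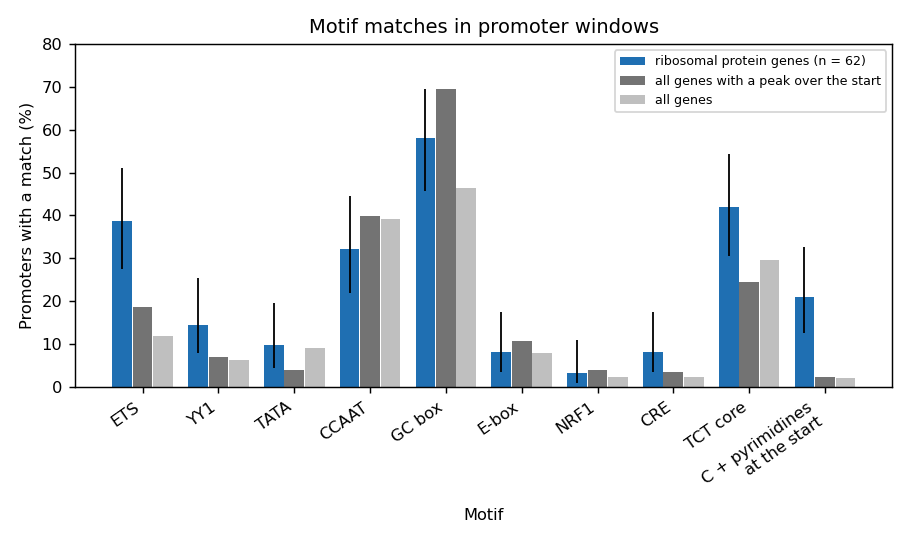
Share of promoters, in percent, that hold each motif form among 62 ribosomal protein genes (blue bars, lines are Wilson 95% intervals), 10380 with a peak over the start (dark grey) and all 17492 (light grey). The ETS letters and the cytosine start with pyrimidines lie above both grey bars, at 38.7% and 20.97%. So do the YY1 letters (14.5%), the cAMP-response letters (CRE, 8.06%) and CTTTT (TCT core, 41.9%). TATAAA, at 9.68%, also lies above both, with an interval that includes the light grey bar. The CCAAT, E-box and NRF1 intervals include both grey bars.

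A gene-end peak, here a peak overlapping by 1 bp or more the 1 kb either side of an annotated gene end, was called at 80 of 82 ribosomal protein genes (97.6%, 91.5 to 99.3%). The background was 66.5% of all protein-coding genes, and 52.2% of the 8615 genes in the same range of length, 592 to 11774 bp. At a summit pileup of at least 20, where pileup is the number of sequenced pieces stacked over the summit, 79 genes had such a peak, against a background of 60.2%. The small subunit had peaks at 30 of 30 genes, the stalk at 3 of 3, the paralogs at 5 of 5 and the large subunit at 42 of 44. The exceptions were Rpl17 and Rpl32l. Rpl17, a protein near the exit of the nascent-chain tunnel, had a peak of pileup 68 inside its gene at chr18:75000182-75000942, outside the window. Rpl32l, the shortest of the genes at 592 bp, had none in its body. Of the 80, 37 genes had 1 gene-end peak, 39 had 2 and 4 had 3.

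Where a gene had several such peaks, the 1 of highest fold enrichment stands for it below, fold being the authors' ratio of pileup at the summit to the background around it. The median pileup of these peaks was 85 (order-statistic 95% interval 78 to 96, n = 80 genes), with quartiles of 67.75 and 108 and a range of 18 to 193. Over all 14552 genes with a gene-end peak the median was 65, with quartiles of 37 and 100. Ribosomal protein genes lay above that median in 62 of 80 cases (77.5%), above the upper quartile in 26 and below the lower quartile in 2. By subunit the medians were 81.5 for the large subunit, 85.5 for the small subunit, 105 for the stalk and 81 for the paralogs, and the ranges of the groups overlapped.

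By fold enrichment the order turned round. The median fold was 8.23 (7.42 to 8.79), below the 11.1 of all genes, and 14 of 80 ribosomal protein genes (17.5%) exceeded that all-gene median. The local background recovered at these summits had a median of 9.43 pieces, against 4.83 for all genes, and fold is the pileup plus 1 divided by that background plus 1. On the scale of -log10 q the medians were 46.8 and 46.2. By the name of the deposited list, peaks were called without a control, so the local background comes from the same library. Whether the peaks were stronger or weaker than those of other genes thus depended on the measure, with more pieces over the summit and also more around it.

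**Figure D2:**
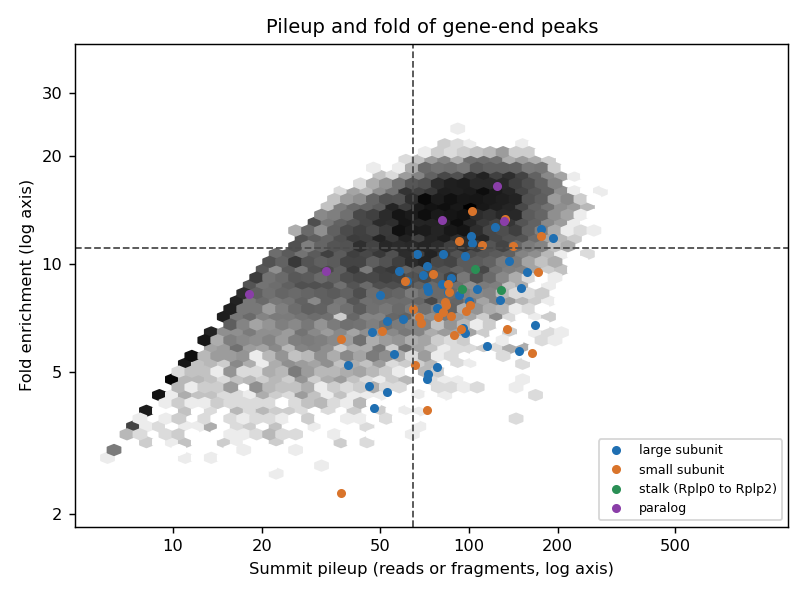
Summit pileup (pieces) against fold enrichment of the gene-end peak of each ribosomal protein gene (points, coloured by subunit, both axes log), over a density of all protein-coding genes with such a peak. Dashed lines are the all-gene medians, and the ribosomal protein genes lie mostly right of the pileup of 65 and below the fold of 11.1.

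Rpl15, a large-subunit protein, had the highest pileup, 193 (exact Poisson 95% interval 167 to 222), in a peak of 1605 bp at chr14:18269844-18271448. Rpl37 followed with 176 (151 to 204) at chr15:5116077-5116956, and Rps29, among the smallest proteins of the small subunit, with 175 at chr12:69158650-69159807. Rps21 had 171 (146 to 199) at chr2:180256223-180257780. Rpl13a, also known as part of a translation-silencing complex in myeloid cells, had 168 (144 to 195) at chr7:45128661-45129208. The intervals of these 5 overlap, so their order is not resolved at this depth.

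Rpl39l had the lowest pileup, 18 (10.7 to 28.4), and Rpl10l the next, 33 (22.7 to 46.3). Rps2 and Rps4x stood at 37 each (26.1 to 51.0), Rpl19 at 39 and Rpl38, known for its part in translating Hox mRNAs, at 46. For Rps2 and Rpl19 the low value was not that of the start. The annotated start of Rps2 lies 1942 bp inside the gene record, so its start peak, with a pileup of 124 and a fold of 7.57 at chr17:24719626-24720557, was not a gene-end peak, and the 37 is that of a peak beyond the far end, also at Ndufb10. The peak of Rpl19 lay at -4062 bp from the start used here (negative values lie before it), and the start peak reached 46. Rps4x, whose gene lies on the X chromosome, had its peak 10 bp from the start, so 37 is the start's own value.

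The stalk, which contacts the GTPase factors, had 105 at Rplp0, 95 at Rplp1 and 129 at Rplp2. Their Poisson intervals overlap. Rpsa, also known as the laminin receptor, had 84, and Rps3, at the mRNA entry of the small subunit, 103. Rpl27 had 123 and Rps27a, made as a fusion with ubiquitin, 111. Genes that the naming rule misses lay in the same range, with 112 at Rps3a1, 79 at Fau, made as a fusion with a ubiquitin-like protein, and 92 at Rack1.

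**Figure D3:**
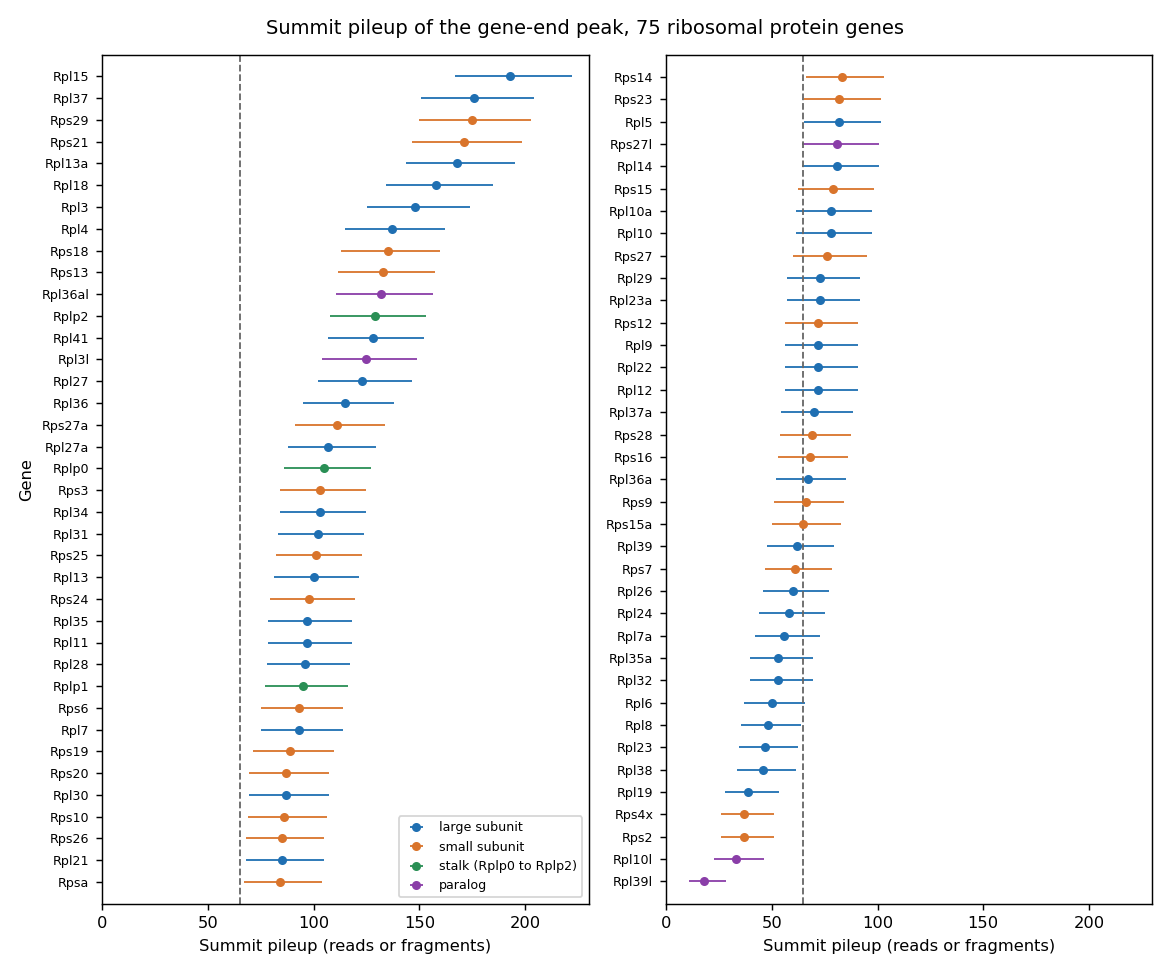
Summit pileup (pieces) that stands for each of 75 ribosomal protein genes, by subunit, with exact Poisson 95% intervals and a dashed line at the all-gene median of 65. Values run from 18 at Rpl39l to 193 at Rpl15, and large- and small-subunit genes span overlapping ranges.

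Paralogs lay below their partner genes in some pairs and above them in others. Rpl10l, used in testis, had 33 against 78 at Rpl10, and Rpl39l, also used in male germ cells, 18 against 62 at Rpl39; in each pair the Poisson intervals do not overlap. Rps27l, a p53 target, had 81 against 76 at Rps27, with overlapping intervals. Rpl36al had 132 against 67 at Rpl36a, in a peak shared with the neighbouring gene Mgat2. The partners Rpl10, Rpl39 and Rpl36a are X-linked and their paralogs autosomal. Over all genes with a peak the median was 41 on the X chromosome and 66 on the autosomes. Rpl3l, the striated-muscle form of Rpl3, had the highest fold of all, 16.5, and a pileup of 125 against 148 at Rpl3. The Rpl3 summit lay 1566 bp outside the gene, and the peak over its other end had 70. The Rpl3l peak lay 8637 bp from the Rpl3l start, at the far end it shares with Msrb1, and no peak lay within 1 kb of its start. Among paralogs outside the naming rule, Rpl22l1 had 98 at its start. Rpl7l1 had 99 in a peak shared with 2310039H08Rik and 38 at its start.

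After Rpl3l, the highest folds were 14.1 at Rps3, 13.3 at Rps13 and 13.3 at Rps27l, with pileups of 103, 133 and 81. The lowest were 2.29 at Rps2, 3.91 at Rps12, 3.96 at Rpl8 and 4.40 at Rpl32. The value of Rps2 is that of its far-end peak, against 7.57 at its start, and that of Rps12 also lay past its far end, against 3.75 at its start. In all, 29 of the 82 genes contained 58 annotated snoRNA genes, where 0.801% of protein-coding genes in the same length range contained any. The median pileup was 86 in the snoRNA hosts with a peak and 84 in the other ribosomal protein genes.

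The X-linked genes were Rps4x with 37, Rpl39 with 62, Rpl36a with 67 and Rpl10, a late-joining large-subunit protein, with 78. Their median was 64.5, against 86.5 for the autosomal ribosomal protein genes. All X-linked genes with a peak had a median of 41, against 66 on the autosomes, and the 4 values lie inside the autosomal ribosomal protein genes' range of 18 to 193.

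Peak width had a median of 874 bp (802 to 950), close to the 890 bp of all genes. The widest were 2188 bp at Rpl7, 1733 bp at Rps12, 1605 bp at Rpl15 and 1595 bp at Rpl3. Those of Rps12 and Rpl3 had their summits outside the gene, and the start peak of Rps12 spanned 916 bp. The narrowest were 218 bp at Rps2, 393 bp at Rpl39l, 446 bp at Rps4x and 481 bp at Rpl8. The 218 bp of Rps2 is its far-end peak, and its start peak spanned 932 bp. Peaks over 1000 bp made up 33.8% of the ribosomal protein genes and 37.7% of all. The genes themselves are short, with a median of 3169.5 bp against 17169 bp, and peaks covered a median of 15.8% of the gene body, against 2.84%.

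A peak covered the annotated start base in 59 of 62 genes with a known start (95.2%), against a background of 59.3%. The exceptions were Rpl22, Rpl3l and Rpl32l. Summit positions were taken from the peak with its summit nearest the start and within 1 kb of it, which need not cover the start base. The same 59 genes had such a peak, and its summit lay at a median of 68 bp before it (95% interval 91 to 41 bp before), with quartiles of 105 and 19.5 bp before it. Over the 11106 genes of the whole set with a summit within 1 kb of the start, a wider set than the 10380 with the start base covered, the median was 25 bp before the start and the upper quartile 62 bp after it. The summit lay before the start in 48 of 59 (81.4%), against 58.0%, and within 200 bp of it in 56 (94.9%), against 74.2%. The 3 farther ones were Rpl10 at 487 bp, Rps26 at 325 bp and Rplp2 at 262 bp, all before the start. Start peaks had a median pileup of 81 against 69, a median fold of 7.90 against 11.4 and a median width of 813 bp against 910 bp.

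**Figure D4:**
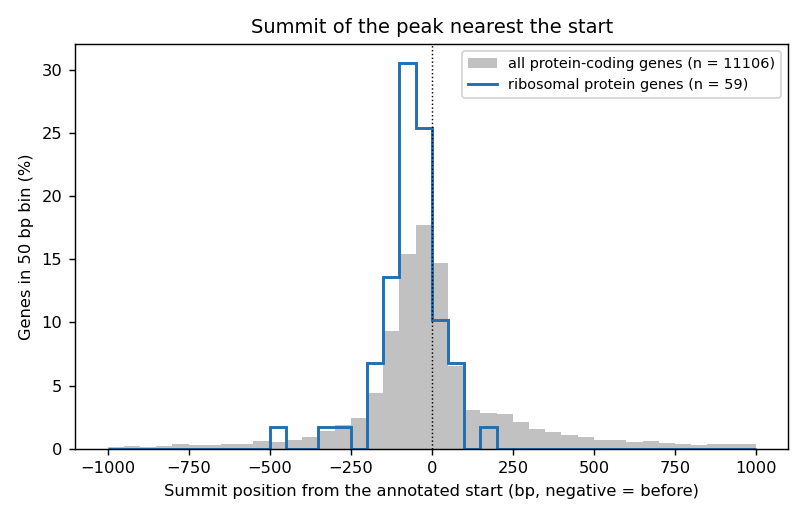
Distance in bp from the annotated start to the summit of the peak nearest it (negative values lie before it), as the percent of genes in bins of 50 bp, for 59 ribosomal protein genes (blue line) and 11106 protein-coding genes (grey). Summits of the ribosomal protein genes gather before the start, with a median of -68 bp against -25 bp.

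Start peaks with and without each promoter form overlapped widely in pileup. With the ETS letters the median was 88.5 (24 genes, range 18 to 193), and without them 76 (35 genes, range 33 to 168). With a GC box it was 87.5 (36 genes) and without it 70 (23 genes). With a cytosine start and pyrimidines it was 90.5 (12 genes) and without 78 (47 genes). With a CCAAT box it was 83 and without 76. For other forms the median was lower with the letters than without them. It was 66.5 against 82 for AAGATGG, 66 against 81.5 for TGACGTCA, 69 against 81.5 for TATAAA and 72 against 87 for CTTTT. For GCGCATGCG it was 76 against 81, and for CACGTG 81 against 81.5. No test was made of these differences between genes of 1 library.

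The highest-fold peak was not always the start peak. Of the 61 genes with both a known start and a gene-end peak, 51 had it as the peak nearest the start, and in 10 its summit lay over 1 kb away. The farthest were Rpl3l at 8637 bp, Rps19 at 6063 bp, Rpl4 at 6060 bp and Rps18 at 4104 bp after the start. Rps19, the gene most often mutated in Diamond-Blackfan anaemia, had 89 at its far end and 124 at its start, where the local background was also higher. Rpl4, which lines the nascent-chain tunnel, had 137 (115 to 162) at its far end and 41 at its start, so there the far-end peak was the taller.

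Peaks at the far end of the gene, where the annotated transcript ends, were common among the ribosomal protein genes. Of 51 genes longer than 2 kb with a known start, 30 (58.8%) had a peak overlapping both the start window and the far-end window, 20 had 1 at the start only, 1 (Rpl3l) had 1 at the far end only and 0 had neither. The background for both was 13.7%. Asking for a far-end peak distinct from the start peak, with its summit within 1 kb of the far end, left 21 of 51 (41.2%, 28.8 to 54.8%), against a background of 12.8%. The share was 14.7% in genes of 2 kb up to the longest ribosomal protein gene, and 18.5% in those of them with a peak over the start. Without strand, over all 69 ribosomal protein genes longer than 2 kb, 26 (37.7%, 27.2 to 49.5%) had different peaks at their 2 ends, against a background of 9.75%. These definitions were chosen after the first count was seen.

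Some far-end peaks are the start peaks of a neighbour, so those at no other protein-coding gene were counted apart. There were 12 of 51 (23.5%, 14.0 to 36.8%), against a background of 8.36%, and 10.2% of genes of similar length with a peak over the start. They were at Rps19 with a pileup of 89, Rpsa with 50, Rpl22 with 49, Rpl13 with 47, Rpl19 with 44, Rpl11 with 43, Rpl26 and Rps15a with 39 each, Rps24 with 38, Rpl27 with 30, Rps16 with 25 and Rpl5 with 21. Rpl5 and Rpl11 form the 5S particle that binds Mdm2 when ribosome assembly is disturbed. The median pileup of the 12 was 41, against 22 for such peaks over all genes, with a median fold of 4.08 against 5.96 and a median width of 791.5 bp against 427 bp. Their summits lay beyond the gene end in 10 of 12 (83.3%, against 51.1%), at a median of 852 bp past it. Summits more than 1 kb from the end were left out by the definition, so this median is bounded by the window. Where both were measured, the far-end pileup was a median of 0.47 of the start pileup. That ratio was 0.346 over all genes, and also 0.47 in genes of 2 kb up to the longest ribosomal protein gene. The remaining 9 far-end peaks, those of Rpl10, Rpl18, Rpl3l, Rpl4, Rpl7a, Rpl9, Rps18, Rps2 and Rps25, were also at another gene.

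Hosts of snoRNA genes had a far-end peak in 8 of 19 (42.1%), and the other ribosomal protein genes in 13 of 32 (40.6%). The far-end peak was also counted in genes of related lists longer than 2 kb with a known start. It was found in 7 of 24 ribosome biogenesis genes and 2 of 12 genes of RNA polymerase I. Among genes of translation factors and other TOP mRNAs it was found in 2 of 13.

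**Figure D5:**
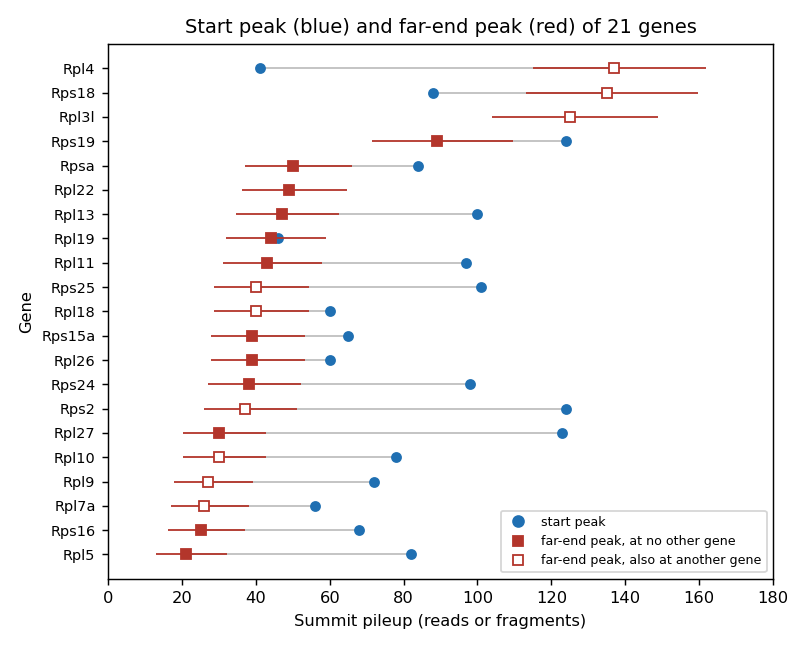
Summit pileup (pieces) of the far-end peak (red squares with exact Poisson 95% intervals, filled where at no other gene) and of the start peak (blue) at the 21 ribosomal protein genes with a separate far-end peak. The far-end peak is the taller at Rpl4 (137 against 41) and Rps18 (135 against 88). No start peak is drawn for Rpl3l and Rpl22, where no summit lies within 1 kb of the start. At Rpl22 a peak overlaps that window with its summit 1387 bp after the start.

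The gene-end peak was also at a neighbouring protein-coding gene in 22 of 80 genes (27.5%). The background was 24.6% of all genes with a gene-end peak and 33.4% of those in the same range of length. Sharing was thus not more frequent than in genes of similar length, and the difference was not tested. Among the shared peaks highest in pileup were those of Rpl15 with Nkiras1, Rpl37 with Card6, Rps21 with Cables2, Rpl4 with Snapc5 at 137, Rps18 with B3galt4 at 135, Rpl36al with Mgat2 at 132 and Rplp2 with Pidd1 at 129. Shared peaks had a median pileup of 113 (72 to 135) and the others 82.5 (73 to 89). The signal of a shared peak cannot be divided between the genes.

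Distal peaks, those at no gene end, numbered a median of 6 within 50 kb of a ribosomal protein gene (range 0 to 16). The median was 4 for all genes and 3 for genes in the same range of length. Rpl10a had 16, Rps10 had 13, and Rpl3 and Rpl19 had 12 each. Rpl15, with the highest pileup at its own end, had 0. The tallest, of pileup 177, lay near Rpl24. Peaks inside a gene and away from its ends count here too, such as the start peak of Rps2 and the inner peak of Rpl17. A peak within 50 kb is near a gene and is not assigned to it.

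Genes of related lists had peaks about as often and higher folds. Peaks were called at 19 of 19 genes of translation factors and other TOP mRNAs, with medians of pileup and fold of 92 and 11.3. The highest pileup there was 177 at Eef2 (an elongation factor), in a peak shared with Dapk3 where its start peak had 54. Hnrnpa1 and Nap1l1, which are not translation factors, followed at 153 each. Peaks were also called at 30 of 30 ribosome biogenesis genes, with medians of 100 and 12.6, led by Nop14 at 219 and Ncl (nucleolin) at 187. The 12 genes of RNA polymerase I had medians of 87 and 11.6, led by Polr1d at 135 and Rrn3 at 122. The ribosomal protein genes, with medians of 85 and 8.23, were thus similar to these in pileup and lower in fold, and their local background of 9.43 compared with 8.01, 6.37 and 4.47 in the same order. The lists are small and the difference was not tested.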

How the data were processed

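Peaks of 1 ATAC-seq library were analysed, with no replicate, so no test over samples was made and no sample entered a comparison between groups. Per the submitters' processing notes, the tools were MACS2 2.2.6, Bowtie2 2.3.4.1, bcl2fastq 2.20.0.422, deepTools 3.2.1 and SAMtools 1.9, on mm10 (GRCm38.p6). Not given in the sources used here are the read total, filters on duplicates and mapping quality, and any shift for Tn5. Times are those of the titles, since the treatment field says 6 h for the samples titled 1 h and 24 h as well.

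The deposited list gives for each of 77629 peaks an integer score, which was 10 times the authors' -log10 q, rounded down, and a fold, the authors' ratio of pileup at the summit to the background around it. It also gives the authors' -log10 p and -log10 q. The lowest deposited -log10 q was 1.30, and the lowest recovered pileup 6. Summit pileups were the whole numbers that gave both the deposited fold and -log10 p under a Poisson model, and all 77629 matched within 0.01 on the -log10 p scale. A piece may be a read or a fragment, and PCR copies may be among them. Recovery and the search of gene ends were tested on simulated data.

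Gene positions were those of RefSeq (GRCm38.p6), in a table without strand, and strand, start and sequence from its promoter table (17492 genes, 1 start each, the outermost). Shares carry Wilson 95% intervals, medians order-statistic intervals and pileups exact Poisson intervals. Named were the genes with no peak, the extremes in pileup, width, fold, distal peaks and distance from the start, the X-linked genes, the paralogs, the shared peaks and 7 fixed genes, and from each comparison list the highest in pileup. Some genes that this rule takes in are counted in the summaries but not reported here by name. The genes and lists were chosen with earlier results of these data known. Computation used scipy 1.17.1, numpy 2.4.6, matplotlib 3.10.9 and pandas 2.3.3 in Python 3.11.15.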

Additional observations from a re-analysis of the deposited data

How the results depend on the processing

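Of 38 alternative settings, 28 stayed within the interval or within 1.5 times of the value reported. The share of genes with a gene-end peak was 91.5% when the peak had to cover the gene end itself (53.9% of all genes). The ratio of the ribosomal protein genes' median strength to that of all genes was 1.31 by pileup, 1.01 by -log10 q and 0.741 by fold, which reverses the direction. The 30 genes with a peak at both ends (58.8% of 51, against 13.7% of all genes) became 19 when the peaks had to be different with summits in the windows (37.3% against 10.1%), 11 when the far one had also to be at no other gene (21.6% against 6.50%), and 19 with windows of 500 bp (37.3% against 7.72%); all 3 were added after seeing the data. The median of 6 distal peaks became 3 within 20 kb, 12 within 100 kb and 4 at a pileup of at least 20, and that of all genes 2, 8 and 2. The 42 pseudogenes with a peak became 13 at a pileup of at least 20, a setting also added after seeing the data. No paired analysis was possible because each group has 1 sample and only 1 library was analysed. Precision is limited by counting error at each summit and by the 62 genes with a promoter entry. Annotated starts were taken as given. The comparison with genes that have a peak over the start was also added after seeing the data.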

Other observations

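Ribosomal protein genes have many processed pseudogenes, copies of the mRNA set back into the genome, which share sequence with their parents. Of 324 annotated pseudogenes with an Rpl or Rps symbol, 42 (12.96%, Wilson 95% interval 9.74 to 17.1%) had a peak within 1 kb of an end, against 11.3% of the 10105 other annotated pseudogenes. Their median pileup was 15, against 21 over the other pseudogenes with a peak. In 40 of the 42, and in 1011 of the 1145 others with a peak, no such peak was at a protein-coding gene end. Over these the medians were 15 and 18. Among the Rpl and Rps pseudogenes the highest were Rps18-ps3 with 124, Rpl36a-ps3 with 77 and Rpl30-ps7 with 55. At a pileup of at least 20, 13 remained (4.01%, against 5.88% of the other pseudogenes). The part of reads that map to both a gene and its copies was not tested.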
